A study of Mus musculus with 2 samples.

Results

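The genes described here are 10 of the 19059 genes in the deposited single-cell tables: the ligands Vegfa, Vegfb, Vegfc, Angpt1 and Angpt2, and the receptors Kdr, Flt1, Nrp1, Tek and Tie1. They were chosen by symbol, as the ligands and receptors of the vascular endothelial growth factor (VEGF) and angiopoietin systems, and all 10 were found in both libraries. Cells came from flash-frozen hippocampus of C57BL/6 mice of both sexes that were 21 months old when treatment began. The control library came from mice that received no tomatidine, and the tomatidine library from mice given tomatidine, a steroidal alkaloid of the tomato plant, for 3 months at 0.05% of the diet. Each library pooled the tissue of 4 mice, so each group is 1 sample, a test between groups could not be run, and differences were not checked against replicates. The question addressed was in which cell classes the ligands and the receptors were found, and whether their levels differed between the libraries.

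VEGF ligands are secreted proteins that act on receptor tyrosine kinases of endothelial cells, the cells that line blood vessels, and control vessel growth, survival and permeability. Angiopoietins bind the receptor TIE2, the product of Tek: angiopoietin 1 activates it and stabilises vessels, while angiopoietin 2 can oppose this and loosen vessels for remodelling. In the adult brain, VEGF-A is made largely by astrocytes and other cells outside the vessel wall, while its receptors lie on the endothelium.

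In mm10, the VEGF ligand genes lie at chr17:46016993-46032369 (Vegfa, minus strand), chr19:6982473-6987651 (Vegfb, minus) and chr8:54077606-54187096 (Vegfc, plus). The angiopoietin genes lie at chr15:42424723-42676977 (Angpt1, minus) and chr8:18690263-18741562 (Angpt2, minus). Of the receptors, Kdr lies at chr5:75932827-75978458 and Flt1 at chr5:147561604-147726011, both on the minus strand. Nrp1 lies at chr8:128358604-128503363 and Tek at chr4:94739289-94874976, both on the plus strand, and Tie1 at chr4:118471191-118490061 on the minus strand.

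Tie1, Tek, Kdr and Flt1 were the members with nearly all or most of their counts in endothelial-like cells, and their promoters are shown for that reason. The windows run from 250 bases before a start site of the gene to 50 bases after it, in RefSeq's GRCm38.p6, and 8 of the 10 members matched an entry of that table. Capitals mark GGAA or TTCC, the core bound by ETS factors on either strand. ETS factors such as ERG and FLI1 are known regulators of endothelial genes.
Tie1: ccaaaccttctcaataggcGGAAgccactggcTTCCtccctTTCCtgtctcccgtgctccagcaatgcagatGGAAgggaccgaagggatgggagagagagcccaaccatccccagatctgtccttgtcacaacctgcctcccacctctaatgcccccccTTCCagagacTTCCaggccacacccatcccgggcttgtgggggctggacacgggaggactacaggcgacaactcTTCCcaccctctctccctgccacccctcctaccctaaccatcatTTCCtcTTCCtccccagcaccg
Tek: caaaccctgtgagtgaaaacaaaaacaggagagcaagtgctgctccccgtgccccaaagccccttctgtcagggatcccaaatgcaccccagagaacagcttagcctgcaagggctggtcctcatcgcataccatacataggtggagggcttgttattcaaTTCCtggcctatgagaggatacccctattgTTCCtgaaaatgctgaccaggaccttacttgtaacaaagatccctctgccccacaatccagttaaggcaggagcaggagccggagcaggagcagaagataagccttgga
Kdr: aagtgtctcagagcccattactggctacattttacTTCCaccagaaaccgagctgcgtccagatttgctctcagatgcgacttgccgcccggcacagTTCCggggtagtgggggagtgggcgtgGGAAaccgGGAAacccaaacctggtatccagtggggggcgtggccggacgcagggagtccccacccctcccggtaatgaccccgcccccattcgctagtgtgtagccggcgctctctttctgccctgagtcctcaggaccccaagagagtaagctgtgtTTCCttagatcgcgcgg
Flt1: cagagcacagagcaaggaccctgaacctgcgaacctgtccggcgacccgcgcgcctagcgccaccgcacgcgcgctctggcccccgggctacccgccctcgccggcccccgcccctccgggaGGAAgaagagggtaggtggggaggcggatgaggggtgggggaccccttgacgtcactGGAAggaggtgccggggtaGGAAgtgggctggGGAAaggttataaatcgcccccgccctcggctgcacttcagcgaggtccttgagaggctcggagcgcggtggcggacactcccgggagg
The Tie1 window is chr4:118489800-118490099 on the minus strand, the Tek window chr4:94739039-94739338 on the plus strand, the Kdr window chr5:75978406-75978705 on the minus strand and the Flt1 window chr5:147725962-147726261 on the minus strand. The core occurred 9 times in the Tie1 window, 5 times in that of Kdr, 4 times in that of Flt1 and 2 times in that of Tek. Such a short core is common: 96.0% of all 32851 windows of this length held at least 1 copy, the median was 3, and 28.6% held at least 5. Among the other members, Nrp1 had 5 copies, Vegfc and Vegfb 2 each, and the windows of Vegfa 6 and 3. The hypoxia response core, ACGTG or CACGT, was found in 19.6% of all windows and, among the members, only in 1 of the Vegfa windows (chr17:46025114-46025413, minus strand), with 1 copy. That window lies inside the gene, and the window at the outer start of Vegfa (chr17:46032328-46032627) held no copy. These are matches of letters and not measured binding sites.

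The number of unique molecular identifiers (UMIs), tags that count single molecules, was added up for each gene and class within a library, and expressed per 1000000 UMIs of that class as CPM. The kept cells numbered 15115 (control) and 14502 (tomatidine), with 206484739 and 200279116 UMIs and medians of 7066 and 7407 UMIs per cell. All intervals are at 95% and cover counting error only, not differences between mice. Clusters were named from marker genes as 17 classes, and 10 further clusters with 1750 control and 2311 tomatidine cells stayed unnamed. The libraries shared 260 cell barcodes among the kept cells. A UMI of a Y-linked gene was found in 69.7% of control and 70.5% of tomatidine cells. Probes per gene differ and were not known here, so a level was compared between classes for 1 gene and never between genes.

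The endothelial-like class held 304 control and 413 tomatidine cells. Of the endothelial markers used, such as the tight junction gene Cldn5, 11 were in the files and none was at 0 in either library. Their summed level was 11746 CPM in control and 13510 CPM in tomatidine cells, and 96.1% and 94.7% of the cells had at least 1 of their UMIs. Markers of mural cells, the pericytes and smooth muscle cells around vessels, were also present, with 12 of 12 above 0, summed levels of 6903 and 8655 CPM, and a UMI in 82.9% and 82.6% of cells. Values are also given below for cells without such UMIs, but these hold few UMIs of any gene. There 3 UMIs are a level of 19.5 CPM in control and 13.9 CPM in tomatidine, against 0.895 and 0.851 CPM in the other cells. A cell with few UMIs can lack a mural UMI for that reason alone, so this subset cannot isolate the part of mural RNA. Astrocyte markers summed to 4489 CPM in control and 3384 CPM in tomatidine cells, with a UMI in 96.7% and 93.0% of cells. Genes of red blood cells summed to 4290 CPM in control and 2138 CPM in tomatidine endothelial-like cells, and 53.3% and 41.4% of cells had a UMI of them. The control cells were deeper, with a median of 6146.5 UMIs against 4554.

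A class was counted as making a ligand or bearing a receptor when the CPM of the gene was at least 2-fold that of all kept cells of the library, in both libraries, with at least 20 UMIs in each. Ligands passed in 13 of 85 pairs of gene and class, spread over 7 classes, and receptors in 8 of 85 pairs, in 4 classes. In endothelial-like cells all 5 receptors and the ligands Vegfc and Angpt2 passed, 7 of the 10 genes, where 11.6% of all 15122 genes did. In fibroblast-like cells 3 of 10 passed, all of them ligands (Vegfc, Angpt1 and Angpt2), beside 8.58% of all genes. In ependymal-like cells, which line the ventricles, 3 of 10 passed (Vegfa, Vegfc and Angpt1), beside 10.8%. In astrocyte-like cells Vegfa and Angpt1 passed, beside 6.0%. A single member passed in oligodendrocyte precursor-like cells (Vegfa, beside 8.05%), choroid plexus-like cells (Vegfa, 4.38%), subcortical neuron-like cells (named from markers of the thalamus and nearby regions; Angpt2, 3.01%), mural-like cells (Flt1, 3.01%), macrophage-like cells (Nrp1, 3.86%) and CA3 pyramidal neuron-like cells (Nrp1, 1.92%). None passed in the remaining 7 classes, where 10.6% of genes passed in microglia-like, 7.77% in oligodendrocyte-like, 2.67% in interneuron-like, 2.62% in dentate granule neuron-like, 2.37% in lymphocyte-like, 1.92% in CA1 pyramidal neuron-like and 1.67% in other excitatory neuron-like cells. No unnamed cluster passed for any member. The ependymal-like class kept its name under only 1 of 7 other filters, clusterings or gates, that with all deposited cells, so its values rest on the clustering used here. In its cluster 10 astrocyte markers were at least 2-fold over the other cells, beside 7 ependymal markers. The part of astrocyte RNA in its levels was not tested.

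**Figure D1:**
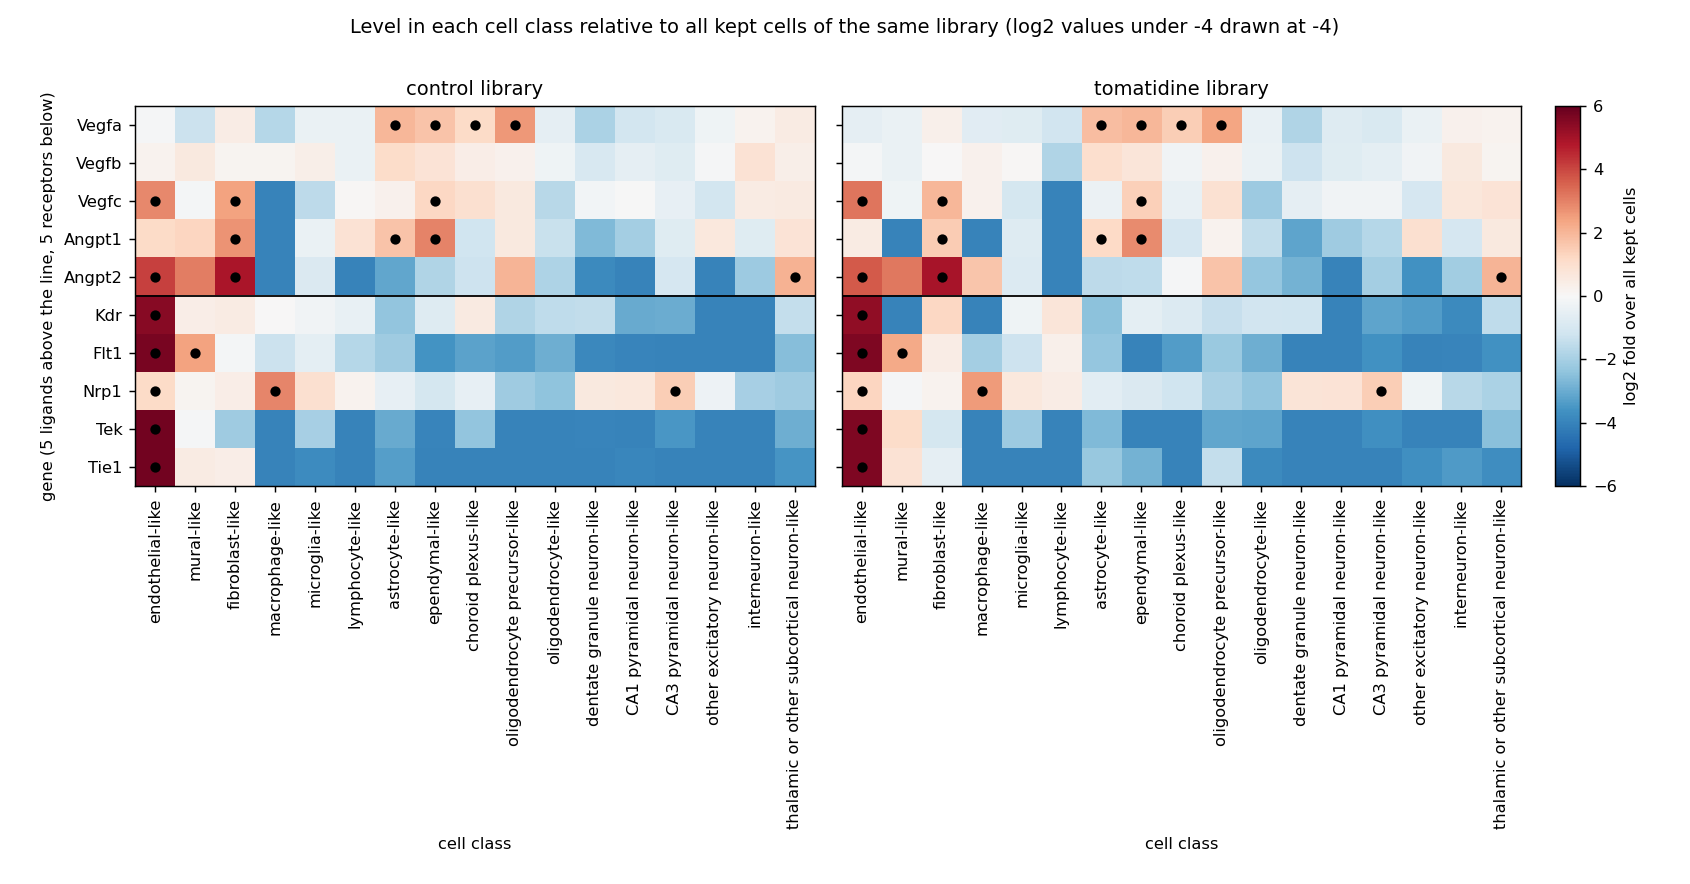
Level of each gene in each cell class, as log2 of its CPM over the CPM of all kept cells of the same library, for control (left) and tomatidine (right); black dots mark pairs that passed in both libraries. Kdr, Flt1, Tek and Tie1 are darkest in the endothelial-like column, Nrp1 in the macrophage-like column, and the 13 dots of the ligands lie over 7 classes.

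Vegfa, the gene of VEGF-A, the main ligand of both VEGF receptors described here, was highest in oligodendrocyte precursor-like cells when whole classes were summed. Its level there was 254 CPM in control (236 to 272, 742 UMIs) and 231 CPM in tomatidine (212 to 252, 512 UMIs). Both values lay above those of astrocyte-like cells, at 168 CPM (160 to 177) and 159 CPM (152 to 166), without overlap of the intervals. Ependymal-like cells followed at 136 CPM (122 to 150) and 173 CPM (157 to 191), and their intervals overlapped those of astrocyte-like cells in the tomatidine library. Choroid plexus-like cells, the epithelium that secretes cerebrospinal fluid, had 93.7 CPM (82.5 to 106) and 122 CPM (90.9 to 160), from 343 control but only 34 tomatidine cells. Fibroblast-like cells, with 57.5 and 54.7 CPM, subcortical neuron-like cells, with 59.2 and 51.1 CPM, and interneuron-like cells, with 48.5 and 53.4 CPM, could not be ordered. Endothelial-like cells had 40.2 CPM (33.8 to 47.4) and 30.7 CPM (25.4 to 36.9), below every class named so far.

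By share of all Vegfa UMIs the order differed, because classes differ in cell number and depth. Astrocyte-like cells held 18.8% of the Vegfa UMIs of the control library and 21.8% of those of the tomatidine library. Oligodendrocyte precursor-like cells held 8.56% and 5.79%, and other excitatory neuron-like cells, at only 34.7 and 33.0 CPM, held 13.5% and 15.0%. This order covers named classes only. The unnamed cluster led by Pou4f2 and Barhl1 alone held 283 control and 826 tomatidine Vegfa UMIs. At least 1 Vegfa UMI was found in 59.3% of control and 48.7% of tomatidine oligodendrocyte precursor-like cells. With each cell thinned to 1500 UMIs these shares were 28.1% and 23.2%, above the 18.7% and 19.8% of astrocyte-like cells. Within the astrocyte-like class the level was not even: 1 cluster had 89.4 and 88.3 CPM, another 291 and 261 CPM, and the last 328 and 378 CPM. The same cluster was low in both libraries. The clusters at 291 and 261 CPM and at 328 and 378 CPM lay above oligodendrocyte precursor-like cells, at 254 and 231 CPM. The order of the classes given above therefore holds for whole classes and not for each cluster.

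Vegfb, the gene of a ligand that binds the receptor FLT1 but not KDR, passed the rule in no class. It was found broadly, at 101 CPM over all kept control cells and 116 CPM over all kept tomatidine cells. Its highest level was in astrocyte-like cells, at 219 CPM (209 to 228) and 232 CPM (223 to 240), just above 2-fold of all cells in control and just below it in tomatidine. Ependymal-like cells had 180 and 191 CPM and interneuron-like cells 185 and 172 CPM, and these overlapped. Endothelial-like cells had 116 and 106 CPM, near the level of all cells.

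Vegfc, whose product is best known for the growth of lymphatic vessels through the receptor FLT4, was highest in endothelial-like cells. Its level was 44.5 CPM in control (37.8 to 52.0, 156 UMIs) and 59.6 CPM in tomatidine (52.1 to 68.0, 223 UMIs). Few cells carried it: 33 of 304 control and 69 of 413 tomatidine cells had a UMI. The 5 control cells with the most held 64.7% of the Vegfc UMIs of the class, and the 5 such tomatidine cells 29.6%. Fibroblast-like cells had 32.1 CPM (23.6 to 42.5) and 25.7 CPM (19.8 to 32.9), and ependymal-like cells 14.6 CPM (10.3 to 20) and 17.4 CPM (12.5 to 23.6). The endothelial-like class still held only 12.5% and 17.2% of all Vegfc UMIs, since low levels in the many neurons added up, with 20.4% and 12.1% in dentate granule neuron-like cells.

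Angpt1, the gene of the ligand that activates TIE2, was highest in ependymal-like cells, at 54.8 CPM in control (46.2 to 64.5, 143 UMIs) and 67.6 CPM in tomatidine (57.5 to 78.9, 159 UMIs). Fibroblast-like cells had 44.8 CPM (34.7 to 56.8, 67 UMIs) in control and 26.5 CPM (20.5 to 33.8, 65 UMIs) in tomatidine, the tomatidine interval lying below that of control. Astrocyte-like cells had 22.6 CPM (19.7 to 25.8) and 21.6 CPM (19.1 to 24.4), close in both libraries. Of all Angpt1 UMIs, 24.8% in control and 39.4% in tomatidine came from other excitatory neuron-like cells, at 10.5 and 18.4 CPM. In the mural-like class, whose pericytes are a known source of angiopoietin 1 in other tissues, 3 UMIs were found in 37 control cells, a level of 17.0 CPM (3.51 to 49.7). In the 38 tomatidine cells there was none, and 3 UMIs there would be a level of 16.5 CPM.

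Angpt2, the gene of the context-dependent antagonist of TIE2, was highest in fibroblast-like cells. Its level there was 79.5 CPM in control (65.9 to 95.1, 119 UMIs) and 76.4 CPM in tomatidine (65.8 to 88.1, 187 UMIs), with intervals that overlapped. Endothelial-like cells came next, at 45.9 CPM (39.1 to 53.6, 161 UMIs) and 31.3 CPM (25.9 to 37.5, 117 UMIs). Mural-like cells had 22.7 and 22 CPM, but from 4 UMIs in each library. Subcortical neuron-like cells had 11.5 CPM (9.78 to 13.4) and 9.95 CPM (7.98 to 12.3), and held 29.6% and 18.0% of all Angpt2 UMIs. In fibroblast-like cells the mural markers summed to 3737 and 5299 CPM and the endothelial markers to 836 and 920 CPM, beside 7792 and 8137 CPM of fibroblast markers, and their part in the ligand levels of that class was not tested.

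Kdr, the gene of VEGF receptor 2, the main signalling receptor for VEGF-A, had 371 CPM in control endothelial-like cells (351 to 391, 1300 UMIs) and 327 CPM in tomatidine cells (309 to 346, 1224 UMIs). The next class, fibroblast-like cells, had 12 and 19.2 CPM. Endothelial-like cells held 74.3% and 74.8% of all Kdr UMIs. A Kdr UMI was found in 63.5% of control and 59.8% of tomatidine endothelial-like cells, and in 1.71% and 2.05% of oligodendrocyte-like cells, whose Kdr UMIs are set against free RNA below. Thinned to 1500 UMIs, the shares in endothelial-like cells were 40.7% and 36.4%, against 0.441% and 0.534% in oligodendrocyte-like cells.

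Flt1, the gene of VEGF receptor 1, which binds VEGF-A tightly and also exists as a soluble decoy, had 2187 CPM in control endothelial-like cells (2138 to 2236, 7669 UMIs) and 2305 CPM in tomatidine cells (2256 to 2354, 8619 UMIs). These held 89.3% and 89.2% of all Flt1 UMIs, and 84.5% and 86.9% of the cells had at least 1. Mural-like cells followed at 221 CPM (157 to 302, 39 UMIs) and 231 CPM (166 to 312, 42 UMIs), where the top 5 cells held 59.0% and 69.0% of the UMIs. Endothelial markers summed to 1554 and 1753 CPM in that class.

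Tek, the gene of TIE2, had 321 CPM in control endothelial-like cells (302 to 340, 1125 UMIs) and 380 CPM in tomatidine cells (361 to 401, 1422 UMIs), the tomatidine interval lying above that of control. Tie1, the gene of the orphan receptor that modulates TIE2, had 225 CPM (210 to 241, 789 UMIs) and 295 CPM (278 to 313, 1103 UMIs), again without overlap. Both were nearly confined to this class by counts: it held 92.4% and 91.8% of Tek UMIs and 94.2% and 91.9% of Tie1 UMIs. No other class exceeded 16.5 CPM of Tek or 11 CPM of Tie1 in either library.

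Nrp1, the gene of neuropilin 1, a coreceptor shared by VEGF-A and the semaphorins that guide axons, had a different pattern from the other receptors. Macrophage-like cells were highest, at 458 CPM in control (375 to 554, 106 UMIs) and 339 CPM in tomatidine (271 to 418, 87 UMIs), from 57 and 70 cells. CA3 pyramidal neuron-like cells had 171 CPM (162 to 181) and 163 CPM (154 to 173), above endothelial-like cells at 136 CPM (124 to 149) and 141 CPM (130 to 154) in both libraries. Microglia-like cells had 119 and 90.2 CPM, CA1 pyramidal neuron-like cells 94.1 and 104 CPM and dentate granule neuron-like cells 90.3 and 98.0 CPM. Endothelial-like cells held only 3.80% and 4.54% of all Nrp1 UMIs, and dentate granule neuron-like cells 33.9% and 29.2%.

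Kdr, Flt1, Tek and Tie1 were all found in 160 of 304 control endothelial-like cells (52.6%) and in 191 of 413 tomatidine cells (46.2%). None of the 4 was found in 13.2% and 9.93% of these cells, against 94.8% and 93.8% of oligodendrocyte-like cells and 82.0% and 78.0% of fibroblast-like cells. The genes whose levels over the 17 classes were most like those of each receptor were also named by rule, as a description over 17 points that share the 2 libraries. Tek was most like Ushbp1 (Pearson r = 0.99), Foxf1 (0.99) and Robo4 (0.98), and Tie1 most like Adcy4, Myct1 and Fmo2 (0.98 each). Flt1 was most like Cldn5 (0.97), She (0.97) and Adgrl4 (0.96). Kdr was most like the haemoglobin genes Hbb-bt (0.92) and Hba-a2 (0.91) and the transporter gene Slco1a4 (0.91). Nrp1 was most like Sdcbp (0.84), Nfkbiz (0.83) and Rgl1 (0.82). Among the ligands, Vegfa was most like Msi1 (0.90), Rlbp1 (0.89) and Agpat5 (0.89), Vegfb like Abat (0.92), Cxcl14 (0.84) and Hhipl1 (0.83), and Vegfc like Eln (0.84), Galnt15 (0.82) and Chrnb1 (0.82). Angpt1 was most like Fzd1 (0.88), Pamr1 (0.87) and Fzd10 (0.83), and Angpt2 like Lrrc32 (0.93) and the matrix genes Lama1 (0.87) and Col3a1 (0.87).

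Receptor UMIs outside the endothelial-like class were set against free RNA, which reaches all droplets. The number allowed was what the endothelial marker UMIs of a class would carry with them at the ratio seen in endothelial-like cells. Tek and Tie1 exceeded it in 0 of 16 other classes in either library. Kdr exceeded it, with an interval above 1, in 5 classes in control and 4 in tomatidine. In dentate granule neuron-like cells, 143 Kdr UMIs were found in control where 68.4 were allowed, a ratio of 2.09 (1.76 to 2.46), and 123 in tomatidine where 38.1 were allowed, a ratio of 3.23 (2.68 to 3.85). In oligodendrocyte-like cells the Kdr ratios were 2.88 and 4.60. Flt1 in mural-like cells was at 0.76 and 0.77 of what was allowed, so it did not exceed free RNA by this measure. The result for Flt1 depended on the markers: with Cldn5, Cdh5, Adgrl4 and Pecam1 alone, chosen after the data were seen, its ratio in mural-like cells was 5.05 and 2.16, and that of Kdr in dentate granule neuron-like cells 7.94 and 14.9.

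Cells of the endothelial-like class were placed in ranges by the highest of 3 scores from markers of arterial, capillary and venous endothelium. This gave 73 control and 98 tomatidine arterial cells, 138 and 166 capillary cells and 38 and 85 venous cells, with 55 and 64 cells in none. These are ranges of a score and not types, and 13, 19 and 6 of the control and 9, 17 and 9 of the tomatidine cells lay near the boundary of the arterial, capillary and venous ranges. Median depth also differed, from 3814 UMIs in venous to 9086 in capillary control cells and from 3069 to 7820 in tomatidine cells.

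Kdr was highest in the capillary range in both libraries, at 607 CPM in control (569 to 646) and 463 CPM in tomatidine (433 to 495). Arterial cells had 177 (153 to 203) and 122 CPM (103 to 144) and venous cells 258 (209 to 317) and 406 CPM (351 to 468). In the tomatidine library the capillary and venous intervals overlapped. Tomatidine was lower in the arterial and capillary ranges and higher in the venous range, and the intervals of the libraries did not overlap in any of the 3 ranges. Flt1 had the same capillary peak, at 3029 and 2962 CPM, against 1820 and 1716 CPM in arterial and 1503 and 1850 CPM in venous cells. Nrp1 also peaked in the capillary range, at 180 and 193 CPM, with 107 and 102 CPM in arterial and 111 and 71.6 CPM in venous cells.

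Tek and Tie1 were more even. Tek had 295 and 306 CPM in arterial, 390 and 429 CPM in capillary and 350 and 495 CPM in venous cells. Tie1 had 199 and 250 CPM in arterial, 286 and 317 CPM in capillary, and 208 (164 to 261) and 410 CPM (355 to 472) in venous cells. The venous range therefore had the widest gap between the libraries for Tie1.

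The ligands made by endothelial-like cells were split between the ranges. Vegfc was highest in the arterial range, at 121 and 149 CPM, with 44.5 and 69.4 CPM in venous cells and only 5 and 11 UMIs (3.15 and 5.85 CPM) in capillary cells. Angpt2 differed between the libraries: its capillary level was 91.9 CPM in control (77.6 to 108, 146 UMIs) and 34.1 CPM in tomatidine (26.2 to 43.5, 64 UMIs). In arterial cells it was 6.28 CPM in control (7 UMIs) and 32.6 CPM in tomatidine (39 UMIs), the opposite direction. In venous cells it was 22.2 and 21 CPM. In control cells 31 of the 161 Angpt2 UMIs of the class came from 1 cell.

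**Figure D2:**
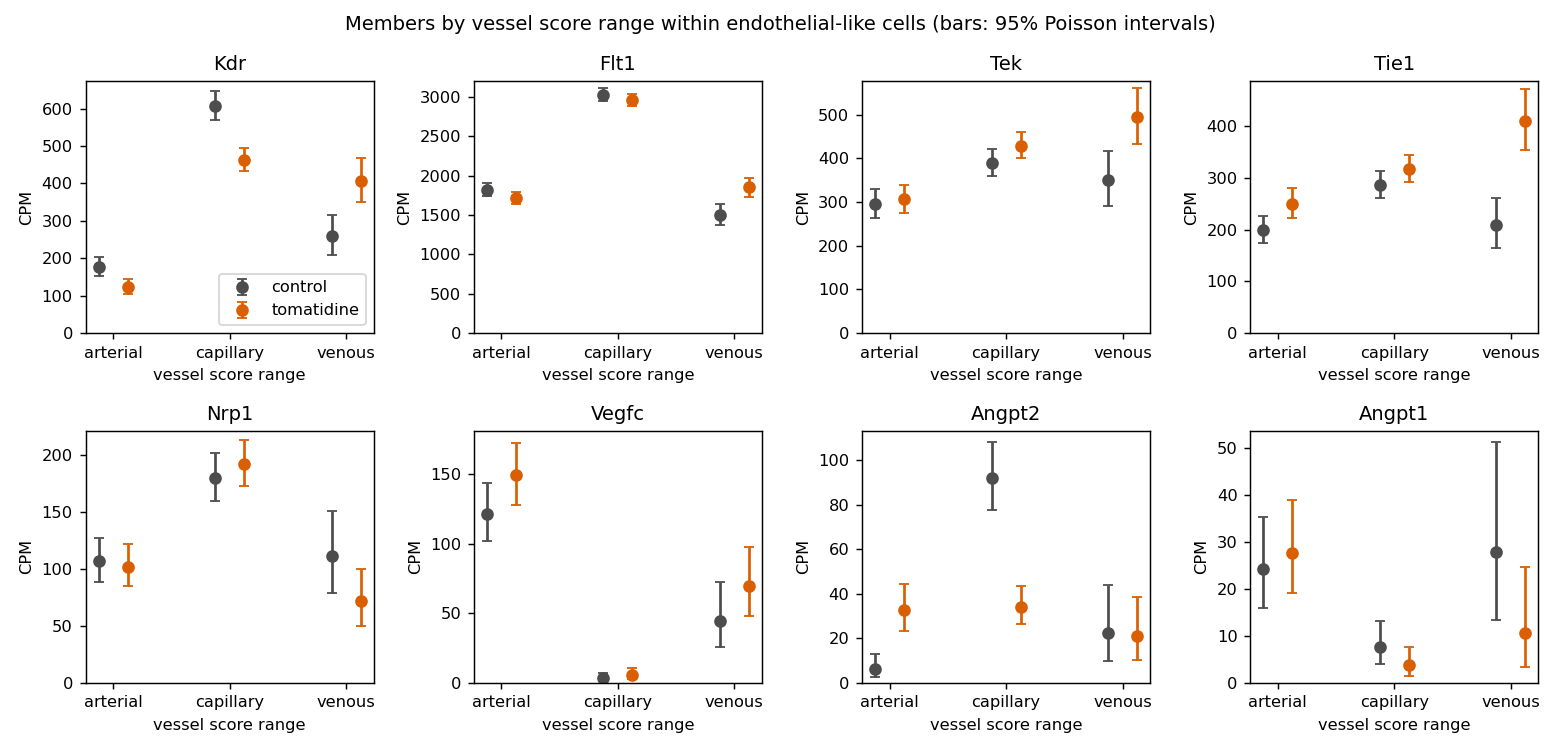
CPM of 8 genes in the arterial, capillary and venous score ranges of endothelial-like cells, control grey and tomatidine orange, 1 library each; bars are 95% Poisson intervals for counting error. Kdr, Flt1 and Nrp1 are highest in the capillary range in both libraries except that Kdr is close between capillary and venous tomatidine cells, and Vegfc is highest in the arterial range.

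To compare the libraries, the log2 ratio of tomatidine over control CPM was taken in each class for each member, and a ratio was called when one library was at least 25% above the other, with at least 100 UMIs over both libraries. Of 74 pairs with enough UMIs, 12 were higher with tomatidine (8 of ligands and 4 of receptors), 10 were lower (5 and 5) and 52 were neither. In the classes with such pairs, 4.97% (astrocyte-like) to 15.9% (macrophage-like) of all genes were higher. From 0.939% (dentate granule neuron-like) to 24.4% (choroid plexus-like) were lower. A share of all genes over these classes together was not taken. In endothelial-like cells 2 of the 10 genes were higher, beside 9.27% of 10227 genes, and 2 were lower, beside 9.68%, each about 1 gene more than the background gives.

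In endothelial-like cells Tie1, at 225 CPM in control and 295 CPM in tomatidine, had a log2 ratio of 0.39 (0.26 to 0.52). Tek, at 321 and 380 CPM, did not reach a 25% difference, with 0.25 (0.13 to 0.36). Both TIE receptors were thus higher in the tomatidine library, with intervals above 0. The summed endothelial markers of the class were higher too, at 11746 CPM in control and 13510 CPM in tomatidine. Whether the TIE receptors differed beyond these markers was not tested. With each cell thinned to 1500 UMIs, the share of cells with a UMI was 29.9% and 37.6% for Tie1 and 37.3% and 44.9% for Tek, the same direction. Of 11 planned settings, Tie1 was higher in 11 and by at least 25% in 10, with values from 0.26 to 1.56. The ratios were smaller in endothelial-like cells without a red cell UMI (142 control and 242 tomatidine cells). There Tie1 had 269 and 458 UMIs and a log2 ratio of 0.13 (−0.09 to 0.35), and Tek 0.16 (−0.04 to 0.35). In the 52 control and 73 tomatidine cells without a mural UMI, Tie1 had 21 and 87 UMIs and a ratio of 1.56 (0.86 to 2.32).

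The VEGF receptors differed less. Flt1, at 2187 and 2305 CPM, had a log2 ratio of 0.08 (0.03 to 0.12), Nrp1, at 136 and 141 CPM, one of 0.06 (−0.12 to 0.24), and Kdr, at 371 and 327 CPM, one of −0.18 (−0.29 to −0.07). None reached a 25% difference. The direction of Kdr turned in the cells without a mural UMI, where it had 30 and 81 UMIs and a ratio of 0.94 (0.32 to 1.60). Under both sets of quality thresholds that the study's methods describe, Kdr was at −0.39.

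Of the ligands in endothelial-like cells, Vegfc, at 44.5 and 59.6 CPM, had a log2 ratio of 0.42 (0.12 to 0.73). Without the 5 cells of each library that held the most Vegfc UMIs, it was 1.39, and with the mean over cells of CPM per cell it was 1.38. The direction was the same in all 11 planned settings, with values from 0.27 to 2.78. Angpt2, at 45.9 and 31.3 CPM, was lower with tomatidine, at −0.55 (−0.91 to −0.20), and stayed lower in the 10 planned settings that gave a value, from −1.06 to −0.48. Without the 5 cells of each library with the most Angpt2 UMIs it was −0.35 (−0.80 to 0.11). Its direction turned in cells without a red cell UMI, with 26 and 69 UMIs and a ratio of 0.77 (0.10 to 1.48). No Angpt2 UMI was found in the 52 and 73 cells without a mural UMI, where the intervals reach up to 24.0 and 17.1 CPM. Vegfa, at 40.2 and 30.7 CPM, was also lower, at −0.39 (−0.76 to −0.02), a call kept in 7 of 11 planned settings. Astrocyte markers were lower in the same cells too, at 4489 CPM in control and 3384 CPM in tomatidine. Vegfb, at 116 and 106 CPM, and Angpt1, at 15.1 and 13.1 CPM, had intervals that included 0, at −0.14 (−0.34 to 0.06) and −0.21 (−0.80 to 0.38). The part of red cell RNA, mural RNA and depth in these ratios was not tested beyond these subsets. Cells without a mural UMI hold few UMIs, so that subset cannot separate mural RNA from depth. That of astrocyte RNA was not tested.

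**Figure D3:**
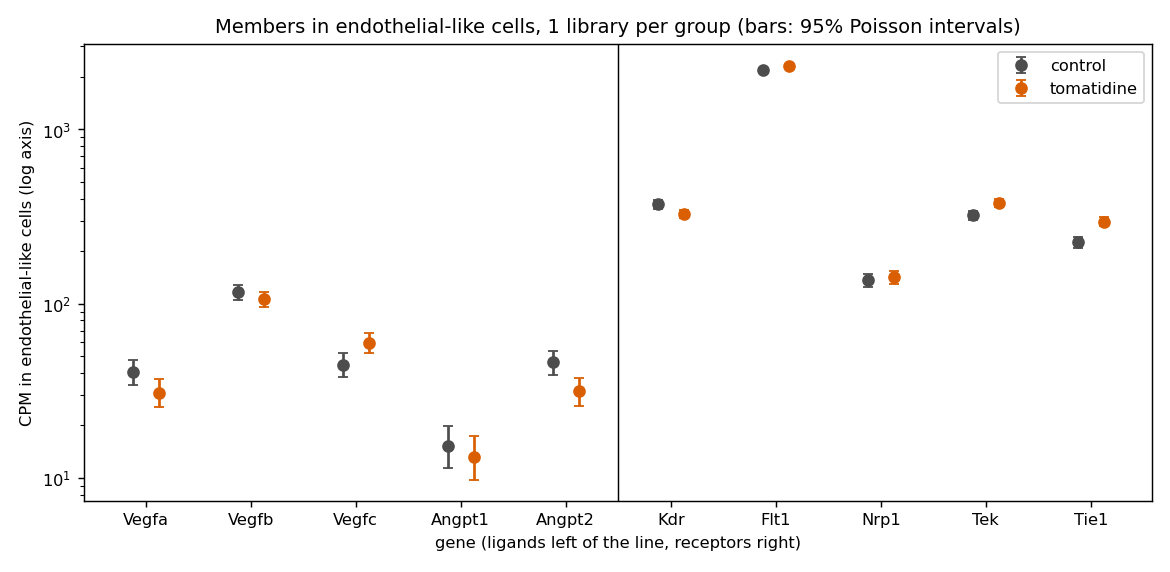
CPM of the 10 genes in endothelial-like cells on a log axis, control grey and tomatidine orange, 1 library each; bars are 95% Poisson intervals. The intervals of Tie1 and Tek do not overlap, with tomatidine higher, while those of Angpt2 do not overlap with tomatidine lower.

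**Figure D4:**
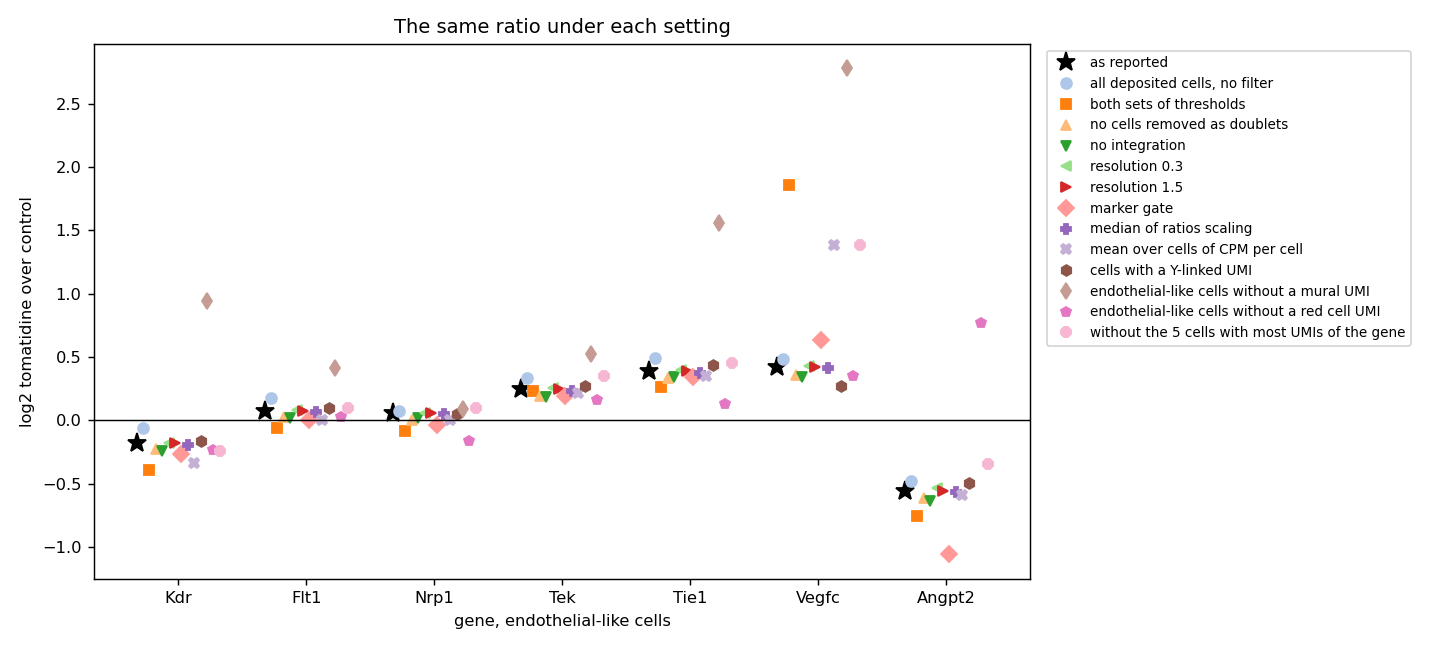
Log2 tomatidine over control in endothelial-like cells for the 5 receptors, Vegfc and Angpt2 under each processing setting; the star is the value reported above. Tie1, Tek and Vegfc stay above 0 in every setting shown, while Kdr in cells without a mural UMI and Angpt2 in cells without a red cell UMI lie on the other side of 0.

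Among the ligands outside the endothelium, Angpt1 in other excitatory neuron-like cells had 352 control and 738 tomatidine UMIs (10.5 and 18.4 CPM) and a log2 ratio of 0.81 (0.63 to 1.0), beside 7.75% of genes called higher there. The clusters of the class differed: in 1 cluster, led by Igfn1, Dkkl1, Ovol2 and Rxfp1 and of 423 and 675 cells, the level was 23.7 and 34.2 CPM, a ratio of 0.53 (0.33 to 0.73), while in another it was 2.38 and 2.25 CPM, a ratio of −0.09. In fibroblast-like cells Angpt1 was lower with tomatidine, at −0.75 (−1.27 to −0.24), beside 13.5% of genes called lower. It was lower in all 10 planned settings, from −0.84 to −0.61, and without the top 5 cells of each library it was −0.40 (−1.05 to 0.25). Angpt2 in the same cells was at −0.06, and whether the 2 angiopoietin genes differed in their ratios was not tested.

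Vegfa was higher in CA1 pyramidal neuron-like cells, at 19.5 and 25.8 CPM with a ratio of 0.40 (0.21 to 0.60), beside 14.8% of genes called higher. That call was kept in 5 of 10 planned settings and the ratio was 0.084 under both sets of thresholds. In ependymal-like cells, at 136 and 173 CPM, it was at 0.35 (0.14 to 0.56), beside 7.47%, and kept the call in 2 of the 4 settings that gave a value. In its highest classes it was not called: the ratio was −0.13 in oligodendrocyte precursor-like and −0.08 in astrocyte-like cells. In choroid plexus-like cells, with 250 and 52 UMIs, it was at 0.38 (−0.08 to 0.81), beside 14.4%, and that direction turned under other settings. Vegfb was higher in CA3 pyramidal neuron-like cells, at 61.1 and 76.5 CPM with 0.33 (0.14 to 0.51), beside 9.79%, and kept the call in 6 of 10.

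Vegfc outside the endothelium was called 3 times, each with an interval that included 0. The ratios were 0.36 (−0.03 to 0.75) in subcortical neuron-like cells, beside 10.8% of genes higher, 0.32 (−0.05 to 0.70) in interneuron-like cells, beside 7.14%, and −0.51 (−1.03 to 0.01) in astrocyte-like cells, beside 3.39% lower. Vegfb in choroid plexus-like cells was also called with such an interval, at −0.39 (−0.88 to 0.07), beside 24.4% lower.

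Nrp1 was called lower with tomatidine in microglia-like and macrophage-like cells. In microglia-like cells it was 119 and 90.2 CPM, a log2 ratio of −0.40 (−0.63 to −0.17), beside 5.26% of genes lower. In macrophage-like cells it was 458 and 339 CPM, a ratio of −0.44 (−0.86 to −0.01), beside 19.7%. The macrophage-like call was kept in 5 of 8 planned settings, and the ratio was −0.095 with all deposited cells. In choroid plexus-like cells, with 114 and 11 UMIs, it was −0.73 (−1.77 to 0.16). In CA3 pyramidal neuron-like cells, where Nrp1 was high among neurons, it was −0.07 and not called.

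The calls of Flt1 and Kdr outside the endothelium rested on few UMIs. Flt1 in fibroblast-like cells had 58 and 159 UMIs and a ratio of 0.74 (0.30 to 1.20), beside 9.28% of genes higher, in a class where mural markers summed to 3737 and 5299 CPM. Its UMIs there were 0.25 and 0.41 of what the endothelial markers of the class allowed as free RNA, and the part of other cells' RNA was not tested. In other excitatory neuron-like cells Flt1 had 43 and 121 UMIs and a ratio of 1.23 (0.72 to 1.77), but 1 tomatidine cell held 40 of the 121. In microglia-like cells the ratio was −0.44 (−0.94 to 0.04) and in subcortical neuron-like cells −0.89 (−1.49 to −0.31), beside 4.14% lower. In the latter class 1 control cell held 64 of the 101 Flt1 UMIs and 1 tomatidine cell 17 of the 34. Without the 5 cells of each library with the most Flt1 UMIs, the ratio was −0.61 (−1.77 to 0.45) there and 0.37 (−0.27 to 1.03) in other excitatory neuron-like cells. The call of Flt1 in microglia-like cells was kept in 5 of 10 planned settings. Kdr in oligodendrocyte-like cells was 0.33 (−0.25 to 0.90), beside 7.18% higher, from 56 and 52 UMIs, and that call was kept in 5 of 10. No member was called higher in astrocyte-like (4.97% of genes higher), dentate granule neuron-like (5.18%), oligodendrocyte precursor-like (9.94%), microglia-like (11.3%) or macrophage-like cells (15.9%). None was called lower in CA1 (2.06% of genes lower) or CA3 (3.12%) pyramidal neuron-like, dentate granule neuron-like (0.939%), interneuron-like (2.41%), other excitatory neuron-like (2.31%), oligodendrocyte-like (2.11%), oligodendrocyte precursor-like (7.88%) or ependymal-like cells (17.7%). In mural-like and lymphocyte-like cells no member had enough UMIs, and of the genes that did 15.9% and 26.2% were higher and 19.0% and 32.2% lower.

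**Figure D5:**
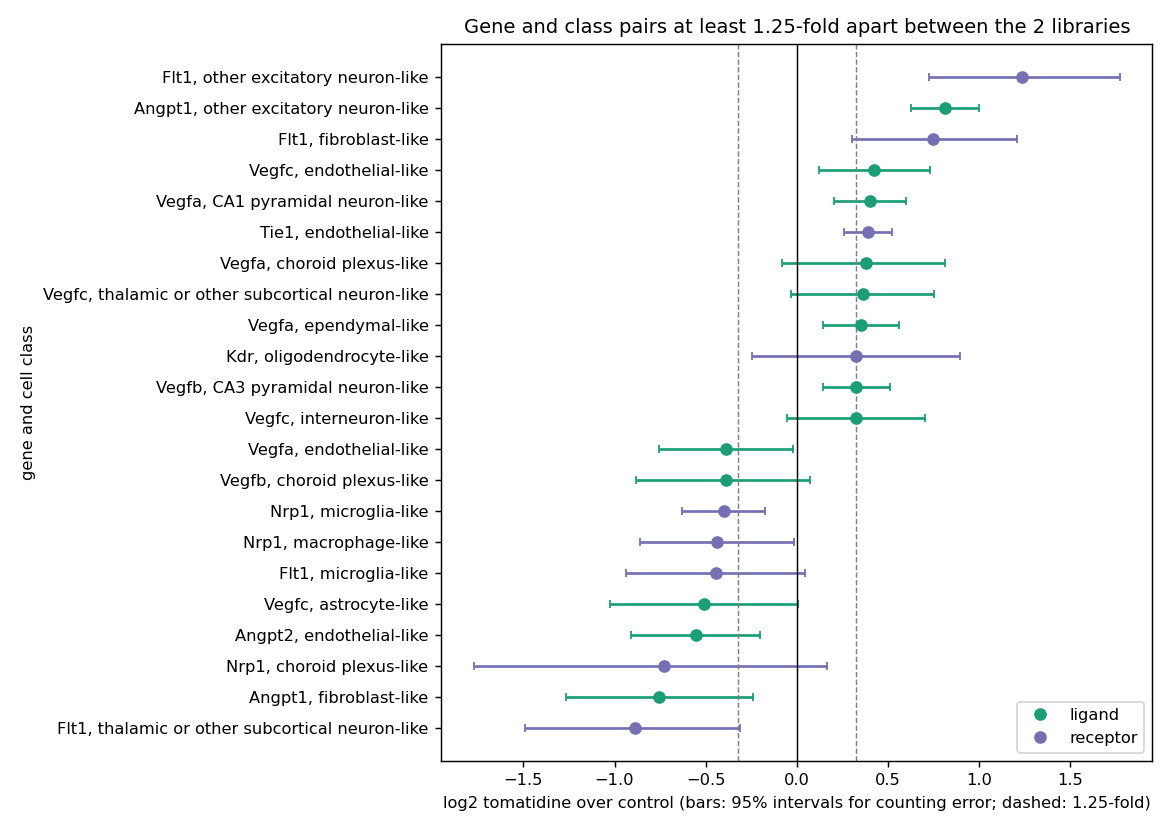
Log2 tomatidine over control for the 22 pairs of gene and class that were called, ligands green and receptors purple, with 95% intervals for counting error; dashed lines mark the smallest called difference of 25%. The 12 pairs with higher and 10 with lower ratios hold both ligands and receptors, and 8 of the intervals cross 0. In the classes where a member had enough UMIs, 4.97% to 15.9% of all genes were higher and 0.939% to 24.4% lower.

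Other genes of the pathways in endothelial-like cells were described from 6 lists by counts. Over all genes the median log2 ratio was 0.01, with 9.27% called higher and 9.68% lower. The summed endothelial markers were higher with tomatidine, at 11746 CPM in control and 13510 CPM in tomatidine. Whether a list of endothelial genes differed beyond these markers was not tested. Of 7 further ligands, receptors and partners, 4 had at least 100 UMIs, of which 2 were higher and none lower, with a median of 0.35. Nrp2, a neuropilin that binds VEGF-C, was at 73.0 and 98.9 CPM (0.44, 0.20 to 0.67), and Vegfd at 12.5 and 17.4 CPM (0.47, −0.10 to 1.06). Ptprb, the phosphatase that dephosphorylates TIE2, was at 806 and 961 CPM (0.25, 0.18 to 0.32), and Flt4, the receptor of VEGF-C, at 114 and 128 CPM (0.16, −0.03 to 0.36).

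Genes of signalling downstream of the VEGF receptors were mostly close between the libraries: of 26 with enough UMIs, 1 was higher, 3 were lower and 22 were neither, with a median of 0.01. Of these, Plcg1 (0.33) and Crk (0.30) had the highest and Nck2 (−0.40) and Map2k1 (−0.34) the lowest ratios. Of 11 genes known to be induced by VEGF in endothelium, 1 was higher, 4 lower and 6 neither, with a median of −0.21, beside 9.27% of all genes higher and 9.68% lower. Ccn1, a matrix protein gene, was at 47.1 and 97.9 CPM (1.06), and Rcan1, an inhibitor of calcineurin, at 0.06. The lowest were Nr4a3 (−1.03), an immediate early nuclear receptor, and Apln (−0.69), the gene of the peptide apelin. Of 11 genes of TIE2 signalling and FOXO1 targets, 1 was higher, Shc1 (0.39), and none lower, with a median of 0.01. The next was Ptprb (0.25), and the lowest were Pik3r1 (−0.21) and Klf2 (−0.09).

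Of 21 hypoxia response genes, 2 were higher, Pfkfb3 (0.55) and P4ha2 (0.37), 1 was lower, Ddit4 (−0.48), and 18 were neither, among them P4ha1 (−0.25). The median was 0.06. Of 11 transcription factor genes of endothelium, 6 were higher, none lower and 5 neither. The median was 0.32, beside 9.27% of all genes higher and 9.68% lower. Whether these genes differed beyond the summed endothelial markers, which were higher too, was not tested. Sox7 (0.55) and Sox18 (0.45) had the highest ratios and Mef2c (0.02) and Ets1 (0.06) the lowest. The ETS factor genes Erg (0.23) and Fli1 (0.18), chosen to be named after their values were seen, were below a 25% difference.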

How the data were processed

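Single-cell RNA-seq was done on pooled hippocampus, with 1 control and 1 tomatidine library. The authors fixed the cells, hybridised gene probes and deposited filtered tables of UMI counts per gene and cell, without normalization, against mm10. The submitters' processing notes name Cell Ranger 8.0.0, while the table headers name 7.1.0. A gene's count depends on its probes, whose number per gene was not known here.

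From 15912 control and 15185 tomatidine cells (279525565 and 259059908 UMIs), those with 500 or more UMIs, over 250 genes, a log10 ratio of genes to UMIs greater than 0.8 and a mitochondrial share below 20% passed. Scrublet (scanpy 1.11.5) called 0 and 1 doublets, so the top 2% by score were removed (308 and 296 cells). Seurat 5.3.0 (R 4.3.3) served for RPCA integration and clustering ( 2000 variable genes, 30 principal components, resolution 0.8), without the members and list genes (114 genes). Clusters were named from markers among their 10 leading genes and from raised markers, those at least 2-fold over the other cells. A name needed at least 3 raised markers. Some named clusters had no marker among the leading genes, so their names rest on raised markers alone. These were clusters of the oligodendrocyte-like, astrocyte-like and other excitatory neuron-like classes. Among them were the cluster led by Igfn1 and the astrocyte-like clusters with the higher Vegfa levels. The rule and a list of conflicting genes were revised after the clusters were seen. Names are rebuilt and are not those of the study. Members and lists were chosen with earlier results of these data known.

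Summed UMIs have exact Poisson intervals, shares exact (Clopper-Pearson) intervals and log2 ratios exact conditional binomial intervals. Named genes were the members, for each the 3 genes most like it over classes (at least 200 UMIs), and the 2 highest and lowest of each list. Coordinates are from GENCODE M21. Alternatives covered the cell filter, doublets, integration, resolution, a gate of at least 4 markers, scaling, summary, low counts, Y-linked UMIs, mural UMIs and thinning to 1000 or 3000 UMIs. Those without red cell UMIs, without the top 5 cells, by cluster and with fewer markers were chosen after seeing the data. The calculations were tested on simulated data. Software was matplotlib 3.10.9, pandas 2.3.3, scipy 1.17.1 and numpy 2.4.6 under Python 3.11.15.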

Additional observations from a re-analysis of the deposited data

Results flagged for a closer look

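Some members moved in opposite directions in different cell classes, with intervals that excluded 0 on both sides. The difference between classes was not tested in any of these cases, since each group was 1 library.

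Vegfa was higher with tomatidine in CA1 pyramidal neuron-like cells, with a log2 ratio of 0.40, and in ependymal-like cells, with 0.35. It was lower in endothelial-like cells, with −0.39. In that class astrocyte markers were also lower, at 4489 CPM in control and 3384 CPM in tomatidine, and their part was not tested. Angpt1 was lower in fibroblast-like cells, with −0.75, and higher in other excitatory neuron-like cells, with 0.81. Flt1 was higher in fibroblast-like cells, with 0.74, and in other excitatory neuron-like cells, with 1.23, and lower in subcortical neuron-like cells, with −0.89. Of the 121 Flt1 UMIs in tomatidine other excitatory neuron-like cells, 40 came from 1 cell, and of the 101 in control subcortical neuron-like cells 64 came from 1 cell. Without the 5 cells of each library with the most Flt1 UMIs, the interval in each of these neuron-like classes included 0. Flt1 in other excitatory neuron-like cells kept its sign in 7 of 10 planned settings. In fibroblast-like cells Flt1 lay below what free RNA allowed in both libraries. The call of Vegfa in CA1 pyramidal neuron-like cells was kept in 5 of 10 planned settings.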

How the results depend on the processing

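No paired analysis was possible because each group was 1 pooled library. Ratios are log2 tomatidine over control. Over planned settings, 285 ratios lay within the interval of the reported ratio, 33 lay outside it and 10 reversed. Over those added after seeing the data these numbers were 43, 8 and 3. Reversal was counted only for ratios of at least 25%, so a smaller ratio that changed sign counts as within or outside. Nrp1 in endothelial-like cells, for example, kept its sign in 8 of 11 planned settings. Ligand pairs that passed fell from 13 to 8, and higher pairs from 12 to 5, under both sets of thresholds. With at least 1 UMI, 18.7% of genes were higher and 17.2% lower in endothelial-like cells. With 4 markers, classes above free RNA numbered 10 for Kdr and 7 for Flt1 in control and 9, 5 and 1 for Kdr, Flt1 and Tek in tomatidine.

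In endothelial-like cells, all deposited cells gave −0.060 for Kdr and 0.18 for Flt1. Both sets of thresholds gave −0.39 for Kdr, −0.059 for Flt1 and 1.85 for Vegfc. Flt1 was 0.025 without doublet removal, 0.018 without integration and 0.0018 with the gate, where Angpt2 was −1.06. The mean over cells gave −0.34 for Kdr, 0.0058 for Flt1 and 1.38 for Vegfc. Without mural UMIs, Kdr was 0.94, Flt1 0.41, Tek 0.52, Tie1 1.56, Vegfc 2.78 (1.09 to 5.14, 3 and 29 UMIs) and Vegfa reversed to 0.92 (−1.14 to 3.47, 3 and 8 UMIs). Without red cell UMIs, Flt1 was 0.026, Nrp1 −0.16, Tie1 0.13 and Angpt2 0.77. Without the top 5 cells, Vegfc was 1.39. Elsewhere, the gate gave −0.40 for Vegfa in oligodendrocyte precursor-like cells, and the mean over cells 0.12 for Vegfa in astrocyte-like cells, which was 0.21 in 1 cluster alone. Angpt1 in other excitatory neuron-like cells was 0.40 with all deposited cells, 1.43 with the gate, and 0.53 and −0.085 in clusters taken alone.

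Directions also reversed for Vegfa in choroid plexus-like cells (both sets of thresholds −0.43, mean over cells −0.65, without the top 5 cells −0.24) and Flt1 in other excitatory neuron-like cells (−0.069 under both sets of thresholds, −0.86 with the gate, −0.077 as a mean over cells). With the gate, Vegfc was −0.00088 in interneuron-like and −0.091 in subcortical neuron-like cells, and Kdr −0.19 in oligodendrocyte-like cells. As a mean over cells, Flt1 was 0.10 in microglia-like cells. The causes were not tested. Endothelial-like cells numbered 223 to 339 in control and 313 to 449 in tomatidine over the filters, clusterings and the gate. Depth limits lymphocyte-like, mural-like, macrophage-like and tomatidine choroid plexus-like cells, with few cells each.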

Other observations

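Levels of other genes of the VEGF and angiopoietin systems are given as values of control and tomatidine. Flt4, the receptor of VEGF-C, had 114 and 128 CPM in endothelial-like cells, and Ptprb 806 and 961 CPM. Nrp2, related to Nrp1, had 144 and 138 CPM in CA3 pyramidal neuron-like cells and 177 and 128 CPM in macrophage-like cells, from 41 and 33 UMIs. Pgf, the gene of placental growth factor, a ligand of FLT1, had 18.0 and 12.7 CPM in fibroblast-like and 12.1 and 13.7 CPM in interneuron-like cells. Svep1, the gene of a matrix protein that binds TIE1, had 132 CPM in control and 81.7 CPM in tomatidine fibroblast-like cells, from 198 and 200 UMIs. Angpt4 had at most 7 UMIs in any class.

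In oligodendrocyte precursor-like cells, the class with the highest Vegfa level, 4 of 18 hypoxia response genes were lower with tomatidine and none higher, with a median log2 ratio of −0.12 beside 0.03 over all genes and 7.88% of genes called lower. Adm, the gene of the vasodilator adrenomedullin, was at 73.1 and 34.8 CPM (−1.07, −1.47 to −0.69), and Ndrg1 at 244 and 119 CPM (−1.03, −1.24 to −0.83). Vegfa itself was at −0.13 there. In astrocyte-like cells the same list had 2 higher and 2 lower of 24 genes and a median of −0.02.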
